A study of Mus musculus with 6 samples.

Results

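The nuclear cysteine tRNAs were described in mouse hearts that had lost Elac2 in muscle and in control hearts. They were taken as every mature or precursor tRNA feature of the count table whose isotype, the amino acid in its name, is Cys, which gave 88 features of 30638, 27 mature and 61 precursor. The knockout mice, labelled L/L, cre and Elac2 -/-, carry loxP sites around 1 Elac2 exon and a cre recombinase driven by the muscle creatine kinase promoter. That promoter acts in striated muscle, so other cells of the whole hearts that were sampled may keep the gene. The control mice, labelled L/L and Elac2 +/+, have no cre. All mice are on a C57BL/6 background, each group has 3 mice, and each mouse has 1 column of counts from small RNA with inserts of 15 to 100 nt, called a library here. The design text names 4 technical replicates of each, merged in a way that no source used here gives. The genotypes could not be checked from Elac2 reads, which were not analysed here.

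Cysteine tRNA carries cysteine to the ribosome and reads its codons with the anticodon GCA. A tRNA gene is transcribed as a precursor with a 5′ leader and a 3′ trailer. RNase P removes the leader, RNase Z (the product of Elac2) removes the trailer, and the CCA end that binds the amino acid is added afterwards. Elac2 acts in the nucleus and in mitochondria, whose own cysteine tRNA, mt-Tc, is encoded by the mitochondrial genome.

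The feature names give the anticodon, a number for each distinct mature sequence and, for precursors, a number for each gene copy. Of the 88 features, 86 have the anticodon GCA and 2 have ACA, and the names form 29 numbered families. The family GCA-4 has 29 precursor copies, GCA-3 has 4, GCA-1 has 2, and each of the other 26 has 1. The families GCA-5 and GCA-28 each have 1 precursor feature and no mature feature among the 88. No source used here says whether mature reads of GCA-5 were counted in its precursor feature, GCA-5-1, so every value of GCA-5-1, and every precursor sum or ratio that holds it, may include mature reads. RefSeq lists 56 cysteine tRNA genes with anticodon GCA on GRCm38, the build of the study's mm10 files. These are background on the genes, since RefSeq symbols do not carry the names used in the count table. Of the 56, 48 lie on chromosome 6, where 47 stand within 229.7 kb (chr6:48133937-48363603). A further 5 lie on chromosome 11, 2 on chromosome 9 and 1 on chromosome 17. In length, 55 of them span 72 bp and 1 spans 70 bp. The lincRNA gene Gm16630 (chr6:48130906-48159280, minus strand in GENCODE) covers 7 of them.

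The mitochondrial cysteine tRNA, the counterpart from the other compartment with the same anticodon, is shown here with its anticodon (positions 29 to 31 of 66) in capitals, as in GENCODE on GRCm38 (chrM:5192-5257, minus strand).
mt-Tc: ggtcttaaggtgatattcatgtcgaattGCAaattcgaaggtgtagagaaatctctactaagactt

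Libraries held 14505705, 15271036 and 14947237 counts in knockout hearts and 13510061, 16248673 and 15951770 in control hearts. Levels are given as CPM (counts of a library set to a total of 1000000), scaled between libraries by TMM factors from edgeR. Across the whole table, 2995 to 3160 features had a count in the knockout libraries and 4664 to 6018 in the control libraries. The miRNA markers of cardiomyocytes all had counts (7 of 7), 1 was called higher and 2 lower, and their summed level was 72669 to 93284 CPM in knockout and 117837 to 148037 CPM in control hearts. Blood miRNAs (3 of the 4 analysed with counts, 1 called higher and 1 lower, Mir223 at 0) summed to 2205 to 2921 CPM in knockout and 2644 to 3696 CPM in control hearts. Fibroblast and smooth muscle miRNAs (4 of 6 with counts, 2 called higher and 0 lower, Mir199a-2 and Mir214 at 0) summed to 24418 to 32253 CPM in knockout and 27829 to 34995 CPM in control hearts. The endothelial Mir126a was not called and had 17620 to 20972 CPM in knockout and 19531 to 23763 CPM in control hearts. Beside these calls, 23.2% of all 1144 features tested were called higher and 27.0% lower. The part of cell makeup in the results below was not tested, and in whole tissue fewer cells of a type and less RNA per cell cannot be told apart.

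Reads of cysteine tRNAs were concentrated in very few features, and both the leading mature and the leading precursor feature fell in knockout hearts. A single mature sequence, GCA-3, and a single precursor, GCA-5-1, held most of the reads of their forms. Of the 88 features, 5 had enough counts to be tested (1 mature and 4 precursor), 4 fell, 0 rose and 1 was not called. Across all 1144 features tested, the quasi-likelihood test of edgeR (Benjamini-Hochberg adjusted p under 0.05) called 27.0% lower and 23.2% higher. The precursors GCA-3-4 and GCA-2-1 reached the minimum count of 10 in control libraries only, so the count of 4 is given as a description and supports nothing. Of the remaining 83 features, 47 had 0 counts in every library (2 mature and 45 precursor). A count of 0 allows up to 3 counts, which is 0.218 to 0.237 CPM in knockout and 0.164 to 0.195 CPM in control libraries, for counting error only.

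The mature sequence GCA-3 had 31.7, 26.7 and 22.7 CPM in knockout hearts, against 80.4, 63.5 and 78.4 CPM in control hearts. Every knockout library lay below every control library, as was the case for 33.7% of all features tested (29.4% lay higher in every knockout library). The level averaged 27.1 ± 4.52 CPM in knockout and 74.1 ± 9.22 CPM in control hearts (SD, n = 3 each). The log2 fold change was -1.45 (SE 0.21, adjusted p = 0.000134 by edgeR), 2.73 times lower in knockout hearts. In the authors' deposited table its log2 fold change is -1.42 (adjusted p = 1.09e-09). Inserts of 15 to 100 nt can hold a whole tRNA or a piece of one, so these reads do not measure intact tRNA alone.

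The other mature sequences had more reads in knockout hearts, not fewer. Together the 26 others held 48, 42 and 38 counts in knockout libraries, against 16, 19 and 15 counts in control libraries. Scaled, these sums were 3.49, 3.32 and 2.86 CPM in knockout and 1.04, 1.07 and 0.820 CPM in control hearts. The groups did not overlap, and the mean was 3.22 ± 0.325 CPM in knockout and 0.977 ± 0.137 CPM in control hearts (SD, n = 3 each), 3.30 times higher in knockout hearts. This sum was chosen after its values were seen and has no test. It did not come from 1 sequence: of 24 others with a count, 21 had a higher count total in knockout, 1 a lower one (GCA-2, with 6 counts in knockout and 10 in control) and 2 were equal. No single one passed 7 counts in a library. GCA-8 had 7, 5 and 1 counts in knockout libraries and 0, 1 and 0 in control libraries, and GCA-18 had 2, 2 and 4 against 0, 1 and 0. GCA-7, the most abundant of the 26, had 2, 5 and 6 counts in knockout and 2, 6 and 3 in control libraries, which overlap. GCA-1 had 1, 3 and 4 counts in knockout and 2, 0 and 0 in control libraries.

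**Figure D1:**
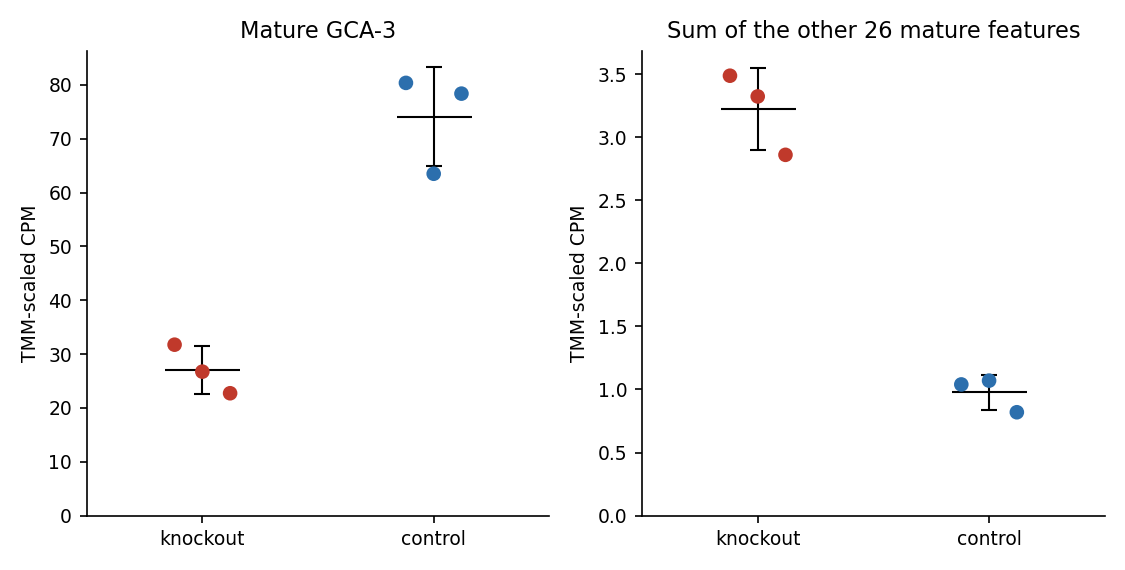
Level of the mature cysteine tRNA GCA-3 (left) and summed level of the other 26 mature features (right) in TMM-scaled CPM, with 1 point per library and bars for mean ± SD (n = 3 per group). GCA-3 averaged 27.1 CPM in knockout and 74.1 CPM in control hearts, while the others summed to 3.22 CPM in knockout and 0.977 CPM in control hearts.

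More mature sequences had reads in knockout hearts: 19, 19 and 17 of the 27 had a count, against 11 in each control library, although more features of the whole table had a count in control libraries. The share of mature cysteine reads outside GCA-3 does not depend on the scaling between libraries. It was 99.0, 111 and 112 per 1000 reads in knockout and 12.8, 16.6 and 10.4 per 1000 in control hearts. Copies of a tRNA are near-identical, and no source used here says how reads that align to several of them were counted, so the split of reads among mature sequences is uncertain. With GCA-3 holding 89.3% ± 0.706 of the mature reads in knockout and 98.7% ± 0.314 in control hearts, the sum over all 27 followed it. That sum was 35.2, 30.1 and 25.6 CPM in knockout and 81.4, 64.6 and 79.2 CPM in control hearts, a log2 ratio of means of -1.31.

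The precursor GCA-5-1 fell, with the lowest log2 fold change of the 5 tested features, within the error of that of GCA-2-1. It had 7.85, 8.78 and 7.83 CPM in knockout hearts, against 42.7, 29.1 and 39.6 CPM in control hearts, with no overlap. The mean was 8.15 ± 0.546 CPM in knockout and 37.1 ± 7.14 CPM in control hearts (SD, n = 3 each), and the log2 fold change was -2.19 (SE 0.23, adjusted p = 1.28e-05 by edgeR), 4.55 times lower in knockout hearts. The authors' deposited table gives it a log2 fold change of -2.15 (adjusted p = 4.10e-17). Summed over the control libraries, GCA-5-1 was the most abundant of all 471 precursor tRNA features in the table, with 1897 counts, and in the knockout libraries it ranked 12 with 323 counts. It held 1.31%, 1.52% and 1.51% of all precursor tRNA reads in knockout libraries and 15.4%, 8.85% and 10.7% in control libraries.

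The precursors GCA-2-1 and GCA-3-4 had few reads, and fewer in knockout than in control libraries. Both passed the filter on low counts through the control libraries alone, so their p-values are a description and no independent sign of a fall. With no filter on low counts, the adjusted p by edgeR was 0.0165 for GCA-2-1 and 0.137 for GCA-3-4. GCA-2-1 had 5, 2 and 8 counts in knockout and 21, 30 and 28 counts in control libraries. Its log2 fold change was -1.998 (SE 0.43, adjusted p = 0.00201 by edgeR). GCA-3-4, 1 of the 4 gene copies of the leading mature sequence, had 8, 8 and 9 counts in knockout and 22, 35 and 30 counts in control libraries. Its log2 fold change was -1.41 (SE 0.33, adjusted p = 0.00376 by edgeR). This call did not stand under every setting: it was lost without knockout replicate 2 (adjusted p = 0.0501) and with snRNA and rRNA-based factors (adjusted p = 0.0793), and the authors' deposited table gives adjusted p = 0.0507.

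Gene copies of the same mature sequence gave unlike values. GCA-3-3, another copy, had 32, 30 and 16 counts in knockout and 16, 33 and 33 counts in control libraries, and the groups overlap. Its level was 1.97 ± 0.661 CPM in knockout and 1.57 ± 0.457 CPM in control hearts (SD, n = 3 each), and it was not called (log2 fold change 0.32, SE 0.35, adjusted p = 0.476 by edgeR; -0.02 with total counts and -0.52 with snoRNA-based factors). Per read of GCA-3-3 there were 0.25, 0.267 and 0.563 reads of GCA-3-4 in knockout libraries, against 1.38, 1.06 and 0.909 in control libraries. These ratios do not overlap. The pair was chosen after its values were seen, and GCA-3-4 passed the filter through its control counts alone. The ratios are therefore given as a description, without a test. The third copy, GCA-3-2, stayed at 4 to 6 counts in every library, and GCA-3-1 had 3, 0 and 1 counts in knockout and 0, 0 and 2 in control libraries. Over the 4 copies the sum was 3.05 ± 0.693 CPM in knockout and 3.56 ± 0.742 CPM in control hearts (SD, n = 3 each), with overlapping groups.

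**Figure D2:**
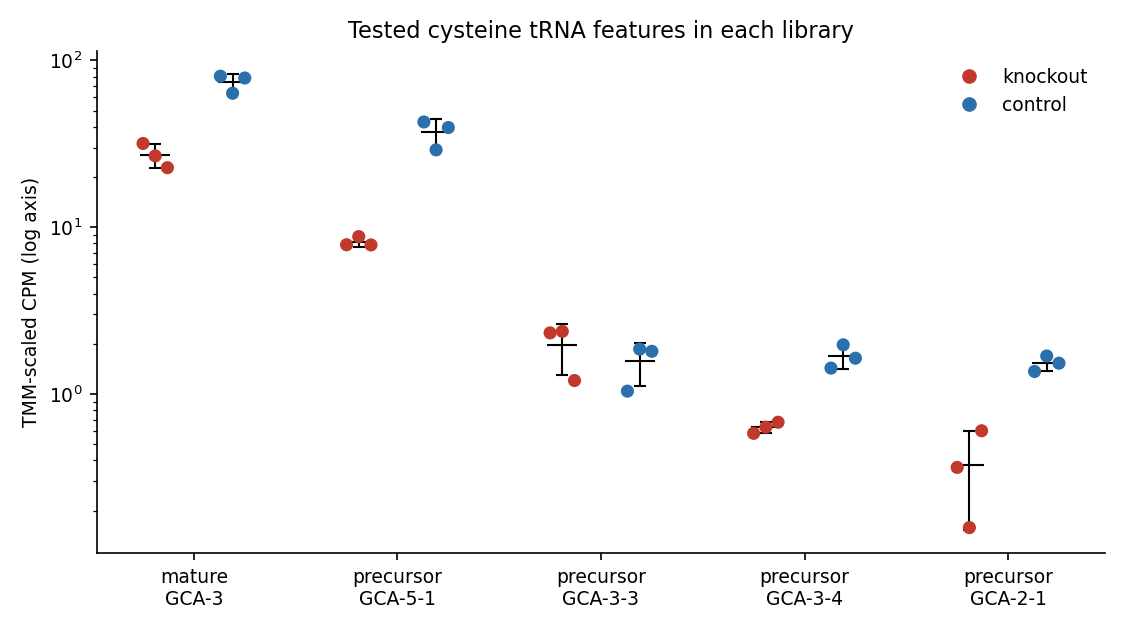
TMM-scaled CPM (log axis) of the 5 tested cysteine features, with 1 point per library and bars for mean ± SD (n = 3 per group). Knockout libraries lie below control libraries for all but the precursor GCA-3-3, whose groups overlap.

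The other 57 precursors had few or no reads in both groups. Only 12 of them had any count, 8 in knockout libraries alone and 4 in both groups, and none passed 8 counts in a library. The largest family, GCA-4, had 2 counts over its 29 copies in knockout libraries and 0 in control libraries, while its mature sequence had 7 counts in knockout and 2 in control libraries. GCA-7-1 had 2, 3 and 1 counts in knockout and 3, 8 and 3 in control libraries. The sum over the 57 was 20, 7 and 9 counts in knockout and 7, 14 and 10 in control libraries, with overlapping groups.

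With most reads in GCA-5-1, the sum over all 61 precursors was lower in knockout hearts. It was 12.6, 12.5 and 11.0 CPM in knockout and 47.0, 35.4 and 45.1 CPM in control hearts, a log2 ratio of means of -1.82. The share of GCA-5-1 in these reads was 62.4%, 70.3% and 71.2% in knockout and 90.9%, 82.2% and 87.8% in control libraries. Without it the remaining 60 precursors summed to 4.72, 3.72 and 3.16 CPM in knockout and 4.29, 6.31 and 5.52 CPM in control hearts, and the groups overlapped.

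**Figure D3:**
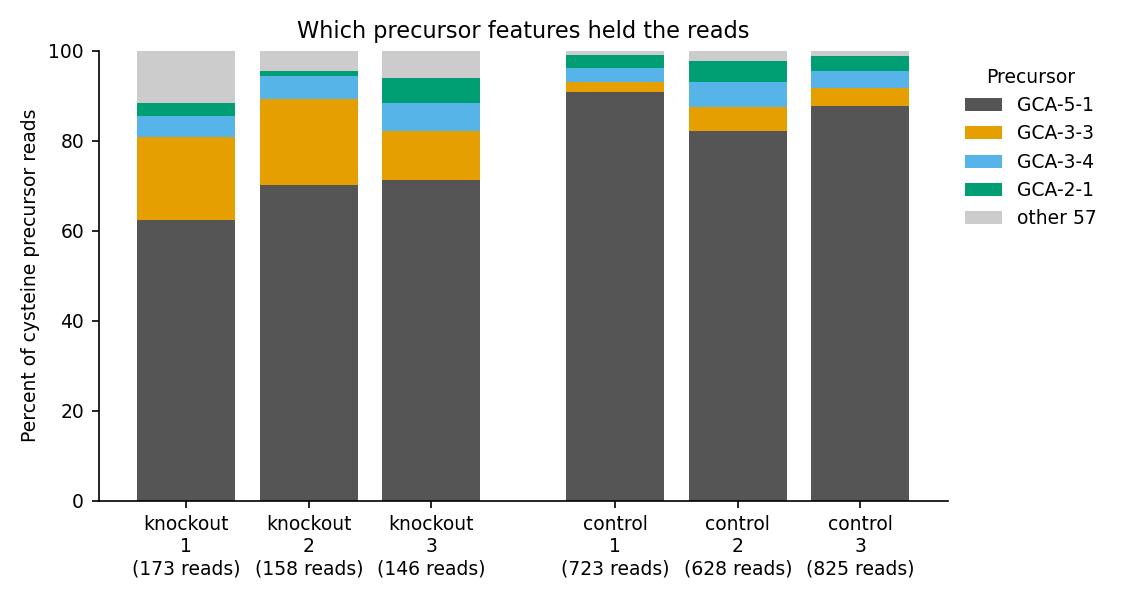
Share of cysteine precursor reads held by each of the 4 tested precursors and by the other 57, in percent of the reads given under each library. GCA-5-1 held 62.4% to 71.2% in knockout and 82.2% to 90.9% in control libraries.

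Precursor reads per mature read were lower in knockout hearts for cysteine, and the direction turned when GCA-5-1, whose reads may include mature ones, was left out. There were 357, 416 and 429 precursor reads per 1000 mature reads in knockout libraries, against 577, 548 and 569 in control libraries. This ratio is formed within a library and so does not depend on the scaling. Without GCA-5-1 there were 134, 124 and 124 per 1000 in knockout and 52.7, 97.7 and 69.7 per 1000 in control libraries, again without overlap. Within the GCA-3 family, where both forms carry the same number, there were 112, 124 and 99.3 precursor reads per 1000 mature reads in knockout and 34.0, 65.7 and 48.1 in control libraries. The 2 ratios that leave out GCA-5-1 were formed after the values were seen. With TMM scaling, the precursor levels in them were not higher in knockout hearts, and the groups overlapped. Without GCA-5-1 the mean was 3.87 CPM in knockout and 5.37 CPM in control hearts. For the GCA-3 copies it was 3.05 and 3.56 CPM. The mature reads that they were divided by were lower in knockout hearts. The precursor sum without GCA-5-1 depended on the scaling. Its log2 ratio ran from -1.32 with snoRNA-based factors to 0.069 with snRNA and rRNA-based factors. No source used here says what part of the leader or trailer a read had to cover to be counted as precursor.

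Among the isotypes, and with GCA-5-1 included, cysteine stood with the few whose precursor reads per mature read were lower in knockout hearts. Of 22 isotypes (initiator methionine and selenocysteine counted apart), 16 had a higher ratio in every knockout library, 3 a lower one (Cys, Ala and SeC) and 3 overlapped. Among the 16 is Phe, whose mature sum was as low as 1 count in a library, so its ratio is uncertain. The 3 lower ones had different makeups: the alanine sum was higher in knockout hearts in the mature form (log2 ratio 2.33) and near level in the precursor form (0.17), while selenocysteine was lower in both (-1.03 and -3.72), as was cysteine (-1.31 and -1.82). Selenocysteine has 1 feature in each form. Its precursor had only 0.158 to 0.301 CPM in knockout libraries, as low as 2 counts in a library. Precursor sums were higher in knockout without overlap for 13 isotypes and lower for 3, and the log2 ratio of cysteine was the second lowest after selenocysteine. Cysteine ranked 2 of 22 by precursor level in control hearts and 13 in knockout hearts. Its share of all precursor tRNA reads was 2.10%, 2.16% and 2.11% in knockout and 16.9%, 10.8% and 12.2% in control libraries. These precursor values of cysteine include GCA-5-1, which held most of its precursor reads and may include mature reads. Without GCA-5-1 the cysteine ratio was higher in every knockout library than in any control library. The precursor sum then overlapped between groups (log2 ratio -0.47). None of these differences between isotypes was tested.

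**Figure D4:**
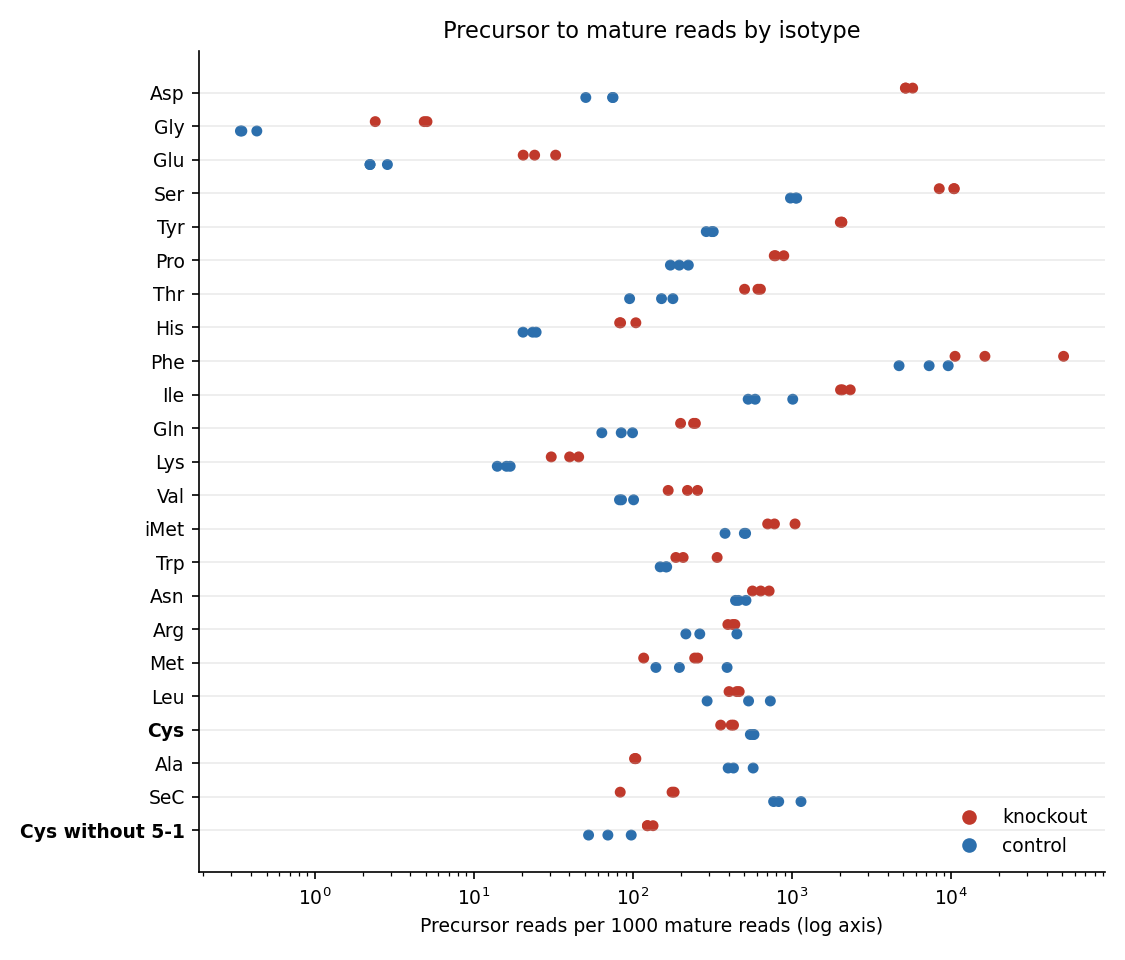
Precursor reads per 1000 mature reads (log axis) for 22 tRNA isotypes, with 1 point per library, ordered by the change between groups, and with cysteine shown again at the bottom without the precursor GCA-5-1. Cysteine averaged 401 in knockout and 565 in control hearts, and 127 in knockout and 73.4 in control hearts without GCA-5-1. The mature sum of Phe was as low as 1 count in a library.

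In the mature form cysteine was closer to the other isotypes. Its log2 ratio of -1.31 ranked 7 of 22 from the lowest, and the nearest others over the 6 libraries were Tyr (-1.37), SeC (-1.03) and Lys (-0.97). Of 123 tested mature features of other isotypes 15 rose (12.2%) and 47 fell (38.2%). Over all features tested, 23.2% rose and 27.0% fell. The median log2 fold change of these mature features was -0.44, against -0.01 over all features tested. Of 110 tested precursors of other isotypes 43 rose (39.1%) and 11 fell (10%), and the median was 0.24. The mature sums of Gly and Glu, the most abundant isotypes in control hearts, had log2 ratios of -2.71 and -3.74. Cysteine made up more of the mature tRNA reads in knockout libraries, at 0.745%, 0.710% and 0.408%, against 0.312%, 0.230% and 0.227% in control libraries.

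**Figure D5:**
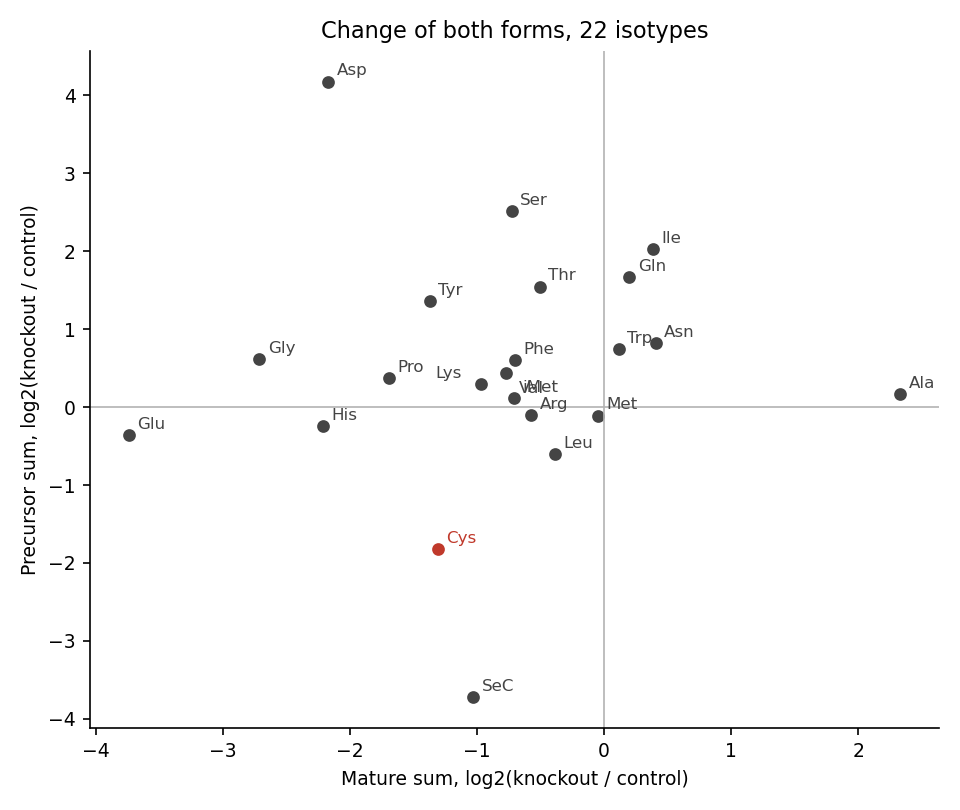
Log2 ratio of knockout over control mean level (TMM-scaled CPM) of the summed mature (x axis) and summed precursor (y axis) features, with 1 point per isotype and cysteine in red. Cysteine lies at -1.31 and -1.82, and its precursor log2 ratio was -0.47 without GCA-5-1. Selenocysteine, at -1.03 and -3.72, is the 1 isotype below cysteine on the y axis. It has 1 feature per form and few precursor counts in knockout libraries. For 13 isotypes, precursor sums lay above those of control in every knockout library.

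The mitochondrial cysteine tRNA mt-Tc, whose sequence is given above, fell in reads. It had 6.54, 8.54 and 6.85 CPM in knockout hearts, against 106, 205 and 154 CPM in control hearts, with a log2 fold change by edgeR of -4.41 (SE 0.29, adjusted p = 6.05e-07). All 22 mitochondrial tRNAs were called lower (median log2 fold change -3.43), against 27.0% of all features tested. The fall is thus not particular to mt-Tc. The difference between mt-Tc and the nuclear features was not tested. The RNAs of the enzymes that act on tRNA and rRNA precursors were not called. Rpph1, the RNA of RNase P, had 58.0, 55.1 and 54.9 CPM in knockout and 59.9, 42.2 and 50.9 CPM in control hearts (log2 fold change 0.14, SE 0.19, adjusted p = 0.577 by edgeR), a sign that turned with 3 of the 5 other scalings. Rmrp, the RNA of RNase MRP, had 599, 509 and 479 CPM in knockout and 463, 339 and 377 CPM in control hearts (log2 fold change 0.43, SE 0.18, adjusted p = 0.0691 by edgeR), and -0.43 with snoRNA-based factors, and it was called higher under some of the alternatives.

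Of the 88 features, 18 have an adjusted p in the authors' deposited table. Of these, 3 are below 0.05 and lower in knockout (GCA-3, GCA-5-1 and GCA-2-1, with adjusted p = 0.0157 for GCA-2-1) and 0 are higher, where 20.6% of its 2597 features with an adjusted p are lower. The share of its features that are higher was not worked out here. Both counts are therefore given as a description and support nothing about cysteine features.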

How the data were processed

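Whole-heart total RNA was made into small RNA libraries and read in paired ends, per the labels' protocols. The series' design text names 4 technical replicates per mouse. For each mouse the authors deposited whole-number raw counts per feature. Their own deposited comparison gives log2 fold changes, p-values, a Wald score and the mean normalized signal, per the file headers. The submitters' processing notes name DESeq2 1.16.1, featureCounts 1.5.1, Bowtie2 2.2.9, cutadapt 1.14 and the build mm10. They do not say how precursors were annotated, which strand was counted or how reads with several alignments were treated.

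Low features were removed with filterByExpr (at least 10 counts, total of at least 15), library sizes were scaled by TMM, and knockout was tested against control over 1144 features with the quasi-likelihood test of edgeR 4.0.16 (R 4.3.3) and no covariates. Calls are at 0.05 after Benjamini-Hochberg adjustment, and the SE is the size of the log2 fold change over the square root of F. TMM factors were 0.949, 0.828 and 0.889 in knockout and 1.14, 1.09 and 1.15 in control libraries. In simulated data for this comparison, 198 of 200 features changed by 2 on the log2 scale were recovered among 1144. Sums over features have no test. Isotype sums cover the 22 isotypes with mature counts in every library. Features are named if they were called, were among the most abundant, or are marked as chosen after their values were seen. The members and lists were chosen with earlier results of these data known. Replicates are separate mice by the design text, and no libraries agreed within sampling noise (lowest chi-square per degree of freedom 93.2). The alternatives were 5 other scalings, no filter, DESeq2 1.42.0, a replicate block and leaving out each library. Figures used Python 3.11.15, pandas 2.3.3 and matplotlib 3.10.9.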

Additional observations from a re-analysis of the deposited data

How the results depend on the processing

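The falls of mature GCA-3 (log2 fold change -2.30 to -0.93), of the precursor GCA-5-1 (-3.04 to -1.65) and of mt-Tc (-5.24 to -3.83) were called under all 14 alternatives run for each. So was GCA-2-1 (-2.84 to -1.40), but except without a filter it was tested only through its control counts, so these calls are no independent sign of a fall. The fall of GCA-3-4 kept its direction and lost its call in 3 (also without a filter, adjusted p = 0.137). The median over all features moved with the setting, by -0.34 with total counts, -0.18 with miRNA-based, -0.84 with snoRNA-based and 0.55 with snRNA and rRNA-based factors, by 0.36 without a filter, and by 0.21 to 0.24 when a knockout library was left out. In the order total counts, snoRNA-based, snRNA and rRNA-based factors, the log2 ratio of the mature sum was -1.65, -2.16 and -0.79, and that of the precursor sum -2.17, -2.68 and -1.29. Leaving out 1 library gave -1.44 to -1.02 for the mature sum and -1.97 to -1.59 for the precursor sum. The precursor to mature difference (-164 reads per 1000) ranged from -179 to -142 without 1 library and became 53.7 without GCA-5-1. The sum of the other 26 mature features stayed higher in knockout, with log2 ratios of 0.88 to 2.23, against 1.72 with TMM. Without GCA-5-1 the precursor sum had log2 ratios of -1.32 to 0.069, against -0.47 with TMM. GCA-3-3 was at -0.023 with total counts and -0.52 with snoRNA-based factors, and with snRNA and rRNA-based factors it made 1 precursor called higher (0.86, adjusted p = 0.0473). Without a filter 41 members were tested and 1 mature feature, GCA-8, was called higher (adjusted p = 0.00430). Rpph1 changed sign with total counts (-0.21), miRNA-based (-0.035) and snoRNA-based factors (-0.72, adjusted p = 0.00913) and without control replicate 2 (-0.020, from a range of -0.020 to 0.37 without 1 library). Rmrp was at -0.43 with snoRNA-based factors and was called higher with snRNA and rRNA-based factors (adjusted p = 0.0151), without a filter (0.00585) and without knockout replicate 2 (0.0245), knockout replicate 3 (0.0208) or control replicate 1 (0.00681). The cause of these changes was not tested. The labels tie same-numbered libraries by the replicate number alone. Their correlations were -0.18, -0.02 and -0.23, which with 3 libraries per group cannot show whether they share a batch. With the replicate block 1 mature and 3 precursor features were called lower, and 536 features in all against 574. Depth limits the 83 untested members, which never passed 8 counts in a library.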
